A study of Mus musculus with 3 samples.

Results

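Type 1 conventional dendritic cells (cDC1) were taken from single-cell profiles of mouse gallbladder by a rule on gene counts, which found 158 cells among 26017 kept cell barcodes. A barcode stands for a droplet and ideally for 1 cell, and a UMI is a molecular tag that counts 1 captured transcript. A member had at least 300 genes, at most 20% mitochondrial UMIs, and 1 or more UMIs of Xcr1 and Clec9a together. Its class II antigen presentation genes (Cd74, H2-Aa and H2-Ab1) summed to 10000 CPM or more, where CPM is a gene's UMIs scaled to 1000000 UMIs of the cell or gate. It had no UMI of Cd209a or Clec10a, of C1qa, C1qb or C1qc, or of Cd3e or Cd79a, and its Epcam, Krt8, Krt18 and Krt19 summed to under 6000 CPM. The cells were thus chosen by the measured counts of these 16 genes, whose levels below are a description.

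The study exposed male C57BL/6 mice to nanoplastics by oral gavage and asked how the gallbladder responds to a short and a long exposure. Per the labels the 3 groups were mice given vehicle over 6 weeks, mice given nanoplastics over 3 weeks and mice given nanoplastics over 6 weeks, so the 3-week exposure had no control of its own length. Each group was 10 gallbladders pooled after trypsin digestion and was 1 library, so there were no replicates and a cell cannot be traced to a mouse. The barcodes carry library numbers 1, 2 and 3 that no label ties to a group. Exposed and control mice were therefore not compared. Values are given per library, which are unassigned and not replicates, and no test was run.

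Conventional dendritic cells take up antigen in tissues, carry it to lymph nodes and present it to T cells. The cDC1 branch depends on the transcription factors IRF8 and BATF3, and is known for cross-presentation, in which antigen from outside the cell is loaded on class I molecules for CD8 T cells. Its receptor XCR1 binds the chemokine XCL1, made mostly by natural killer cells and activated CD8 T cells, and CLEC9A binds actin filaments exposed on dead cells. The cDC2 branch depends on IRF4 and mainly presents antigen to CD4 T cells.

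The libraries held 72943584, 121349261 and 58172348 UMIs, and 34, 54 and 70 cDC1. A cDC1 had a median of 16231 UMIs in library 1, 6963.5 in library 2 and 4883.5 in library 3, with a range of 510 to 32369 over all cells. Between 15 and 22 barcode sequences occurred in both libraries of a pair, none of them a cDC1. Levels are CPM of UMIs summed over the cells of a gate in a library, and all intervals are exact 95% intervals that cover counting error only.

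The rule left 325 kept barcodes with a UMI of Xcr1 or Clec9a. The class II minimum reduced them to 247, the absence of Cd209a and Clec10a to 197 and the absence of C1q genes to 164. The T and B cell genes removed 1 more and the epithelial limit 5. Xcr1, on chromosome 9 (GRCm38, 123852315 to 123862029, minus strand), stood at 163, 159 and 236 CPM in libraries 1, 2 and 3. Clec9a, on chromosome 6 (GRCm38, 129408862 to 129424763, plus strand), stood at 148, 212 and 256 CPM. Both genes were seen in 73 cells, Clec9a alone in 53 and Xcr1 alone in 32. The 2 genes together had 1 UMI in 49 cells, 2 UMIs in 37, 3 in 24 and 6 or more in 23, with 15 as the highest.

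**Figure D1:**
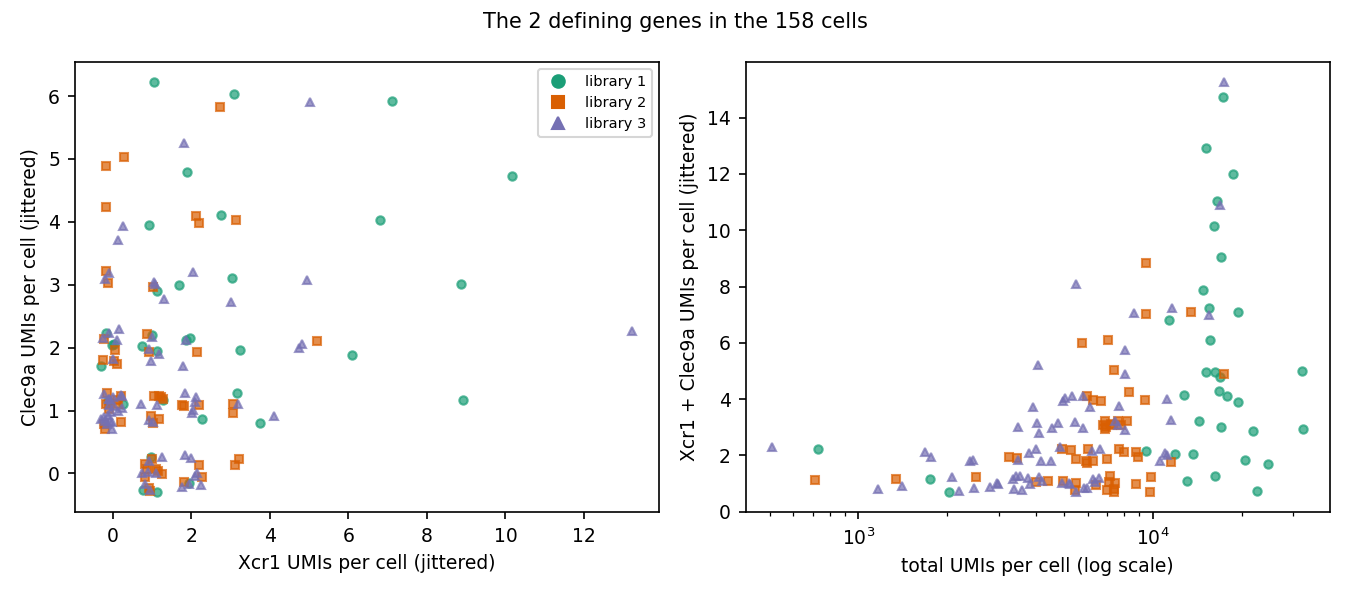
UMIs per cell of Xcr1 against Clec9a (left) and their sum against total UMIs per cell on a log scale (right) in the 158 cDC1, 1 point per cell with a small random shift, coloured by library. Most cells hold 1 to 3 UMIs of the pair, and the cells of library 1 reach the highest totals.

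In gates that should lack both genes a UMI was rare. Of 669 T cells (median 2595 UMIs) 1 had a UMI of Xcr1 and 1 of Clec9a. Of 9565 epithelial barcodes (median 13654 UMIs) 17 and 19 had one, and of 4116 fibroblasts (median 3215.5 UMIs) 6 and 10. These are shares of 0.146% to 0.243%, against 66.5% and 79.7% in the cDC1, where the rule required a UMI of either. The class II sum of the nearest member was 11138.9 CPM and that of the nearest barcode outside was 9696.6 CPM, with 34 barcodes outside on that limit alone. On the epithelial limit the nearest values were 4195.8 CPM inside and 7591.6 CPM outside.

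The label was checked with 7 cDC1 or dendritic genes that the rule did not use: Irf8, Batf3, Naaa, Wdfy4, Cadm1, Itgae and Flt3. At least 3 of them had a UMI in 139 of the 158 cells (88.0%, interval 81.9 to 92.6%) and none in 2 cells. At least 3 had a UMI in 27.8% of 407 cells in a cDC2 gate and in 11.1% of 885 cells in a C1q macrophage gate. The cells were not thinned to equal depth for this count. Median depth was 6709.5 UMIs in cDC1, 5434 in cDC2 and 3445 in macrophages, and the part of depth was not tested. The cDC2 gate had the same limits but required a UMI of Cd209a or Clec10a and none of Xcr1 or Clec9a. The macrophage gate required 3 UMIs of the C1q genes and none of Xcr1 or Clec9a. The 49 cells with a single UMI of Xcr1 or Clec9a had Irf8 at 624 CPM against 714 CPM in the other 109, Naaa at 684 against 726, Cadm1 at 222 against 236 and Wdfy4 at 504 against 440. Itgae was at 109 CPM (73.0 to 157) in the single-UMI cells and at 212 CPM (185 to 241) in the others. The single-UMI cells were 5, 18 and 26 by library and the others 29, 36 and 44, and the part of this mix in the difference was not tested.

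Several defining genes of other lineages had no UMI. Cd3d, Cd4, Cd8b1, Nkg7, Gzma, Klrb1c, Ncr1 and Xcl1 were at 0, and the list of 13 T and NK cell genes outside the rule had 36 UMIs in 11 cells. Fcgr1, Trem2 and Folr2 had none among the macrophage genes, Ly6g and Retnlg none among the neutrophil genes, and Pax5 none among the B cell genes. Other members of these lists were present. The 9 neutrophil genes had 162 UMIs in 73 cells, 138 of them from Il1r2. The 9 B and plasma cell genes outside the rule had 159 UMIs in 86 cells, 99 of them from Ighm. Over the whole gate, the interval of a count of 0 reaches 2.80 CPM. The plasmacytoid gene Klk1 was also at 0, and the highest of that list were Ly6d, Bst2 and Tcf4. Other lists were present. Monocyte genes summed to 1245, 1616 and 1442 CPM by library, led by Lyz2, Plac8 and Ccr2, with 1860 UMIs in 153 of the 158 cells. In cDC2 the same list was at 1519, 1770 and 3065 CPM. Epithelial genes, those limited by the rule included, summed to 437, 543 and 504 CPM. Macrophage genes summed to 435, 82.1 and 221 CPM, of which Apoe made up 384 CPM in library 1. Fibroblast and endothelial genes summed to 2847, 707 and 2036 CPM in libraries 1, 2 and 3, with 32.3% of their 2627 UMIs in 1 cell of library 1. A doublet caller, Scrublet, marked 12 of the 158 barcodes (7.59%, against 3.94% of everything kept), 2, 2 and 8 of them by library. Those 12 held 85.9% of the stromal UMIs, and without them the stromal level was 408, 36.9 and 513 CPM. They were kept in the values below. Of the 91 genes whose calls against cDC2 were rechecked, Mylk, Ccl5, Gbp4, Il4ra, Tlr12 and Vsir lost them without the marked barcodes.

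Dendritic cells of this branch were 0.607% of kept barcodes (interval 0.517 to 0.709%). In library 1 the share was 0.772% (0.535 to 1.08%), 0.467% in library 2 (0.351 to 0.609%) and 0.696% in library 3 (0.543 to 0.879%). Library 2, the lowest, was also richest in epithelial barcodes, with 60.4% against 37.6% and 9.18%. Among cDC1 and cDC2 together, cDC1 were 32.4% in library 1 (23.6 to 42.2%), 18.2% in library 2 (14.0 to 23.0%) and 42.9% in library 3 (35.2 to 50.9%). On this ratio the interval of library 2 ended at 23.0% and that of library 1 began at 23.6%. These intervals cover counting error within 1 library each. The absence of C1q genes, 1 limit of the rule, cut the candidates from 51 to 35 in library 1. It cut them from 66 to 59 in library 2 and from 80 to 70 in library 3. Median depth of cDC1 was 16231, 6963.5 and 4883.5 UMIs by library. The parts of the epithelial share, of depth and of this limit in the order of the libraries were not tested. What the libraries were given cannot be told from the files, so the order cannot be linked to exposure. With a UMI of both Xcr1 and Clec9a required, 73 cells remained, 0.281% of kept barcodes and 15.2% of the conventional dendritic cells.

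**Figure D2:**
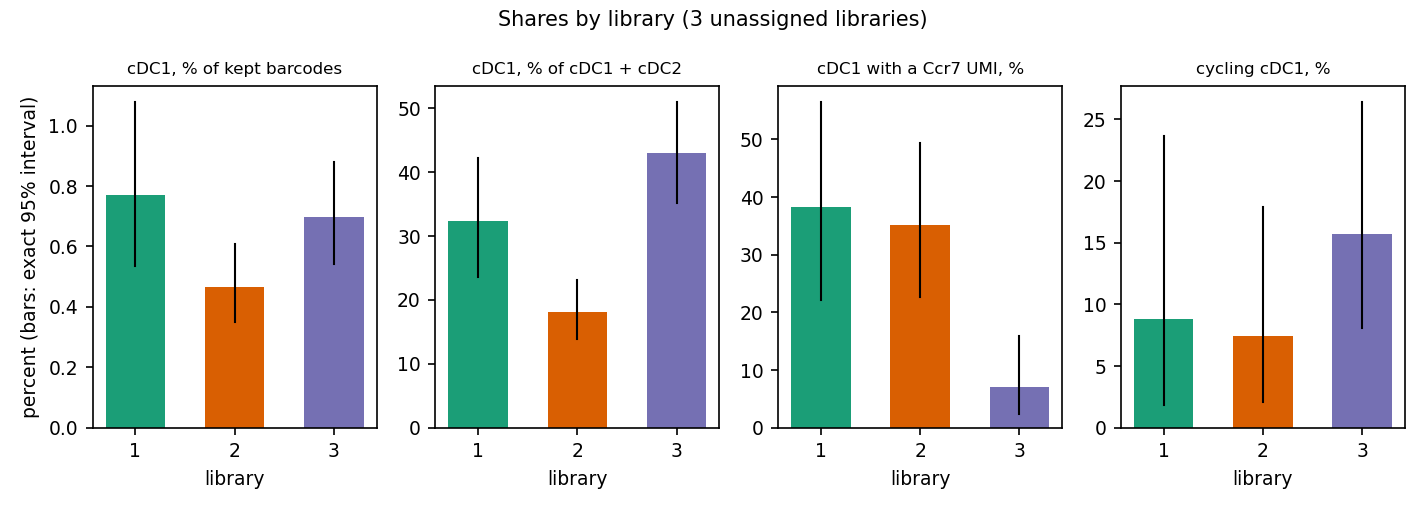
Percent of kept barcodes that were cDC1, of cDC1 and cDC2 together that were cDC1, of cDC1 with a Ccr7 UMI and of cycling cDC1, by library, as bars from 0 with exact 95% intervals. Library 2 is lowest in both shares of cDC1, and library 3 is lowest for Ccr7, at 7.14%.

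Compared with cDC2, the cDC1 had more Irf8, Naaa, Ppt1, Cadm1 and Tlr3 and less Itgam, Sirpa, Cybb and Mrc1 in every library. A gene was called when its CPM ratio was 2 or more, or 1/2 or less, in each of the 3 libraries, with 0.5 UMI added to each sum and 20 UMIs required over both gates. Of 8709 genes tested, 205 were higher (2.35%) and 317 lower (3.64%), and the median log2 ratio of all tested genes was 0.05. Without library 1, 323 genes were higher and 476 lower. With 50 UMIs required, 117 were higher.

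Of 23 tested cDC1 markers outside the rule, 14 were higher in cDC1, against 2.35% of all genes, and none was lower, against 3.64%. Their median log2 ratio was 2.09. Irf8, the transcription factor that the branch depends on, stood at 554, 442 and 1136 CPM in cDC1 and at 10.7, 14.0 and 29.1 CPM in cDC2. The ratios were 49.0 (26.8 to 114), 30.8 (19.3 to 54.5) and 37.5 (22.1 to 76.1), and every cDC1 value lay above every cDC2 value. After thinning each cell to 1500 UMIs, which left out 6 cDC1 and 21 cDC2, 60.5% of cDC1 and 2.33% of cDC2 had an Irf8 UMI. Unthinned shares were 82.9% and 6.63%. Outside the dendritic gates, thinned and unthinned shares were 21.9% and 39.7% in C1q macrophages, 1.35% and 4.04% in T cells and 8.88% and 20.7% in fibroblasts. Batf3, its partner factor, stood at 62.2, 63.6 and 104 CPM against 29.8, 26.5 and 67.9 CPM and was not called, with a ratio of 1.52 (0.924 to 2.57) in library 3.

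Naaa, a lysosomal amidase, was 3.94-, 4.26- and 5.60-fold higher, at 508, 403 and 1308 CPM against 129, 94.3 and 233 CPM. Ppt1, which removes palmitate from proteins in the lysosome, was at 523, 413 and 639 CPM against 33.4, 37.4 and 26.7 CPM. Cadm1, a cell adhesion molecule, was at 199, 122 and 388 CPM against 2.39, 7.80 and 24.2 CPM. In each of these genes the lowest cDC1 library lay above the highest cDC2 library. Cadm1 was not called against C1q macrophages. After thinning, 28.9% of cDC1, 9.38% of C1q macrophages and 8.71% of epithelial barcodes had a Cadm1 UMI. Unthinned shares were 62.0%, 21.7% and 53.6%. Rab7b, a small GTPase of endosomal traffic, was at 298, 352 and 309 CPM against 42.9, 34.3 and 26.7 CPM, but C1q macrophages had 446, 407 and 296 CPM. Gcsam, a signalling adaptor of germinal centre B cells, had 82 UMIs in cDC1 and 1 in cDC2.

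Itgae, the CD103 integrin chain that marks cDC1 in mucosal tissue, was at 227, 117 and 213 CPM against 59.6, 53.0 and 4.85 CPM. Its ratio was thus uneven, from 2.21 (1.47 to 3.26) in library 2 to 35.3 (11.8 to 369) in library 3, and the low value in library 3 was that of cDC2. Wdfy4, which cross-presentation by cDC1 requires, was at 395, 400 and 583 CPM against 205, 189 and 162 CPM. It was not called, because its ratio in library 1 was 1.92 (1.57 to 2.37). Flt3, the growth factor receptor of all conventional dendritic cells, was at 181, 114 and 406 CPM against 103, 111 and 315 CPM, not called and highest in library 3 in both gates. Cd8a, which marks cDC1 in lymphoid organs, had 2 UMIs in cDC1 and 2 in cDC2. Clnk, an immune adaptor, had 22 UMIs in cDC1 and none in cDC2, a level at least 14.1-fold higher against a floor of 3 counts over the gate. Its call was lost under 2 of 9 alternatives, those that ask for more Xcr1 and Clec9a UMIs.

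**Figure D3:**
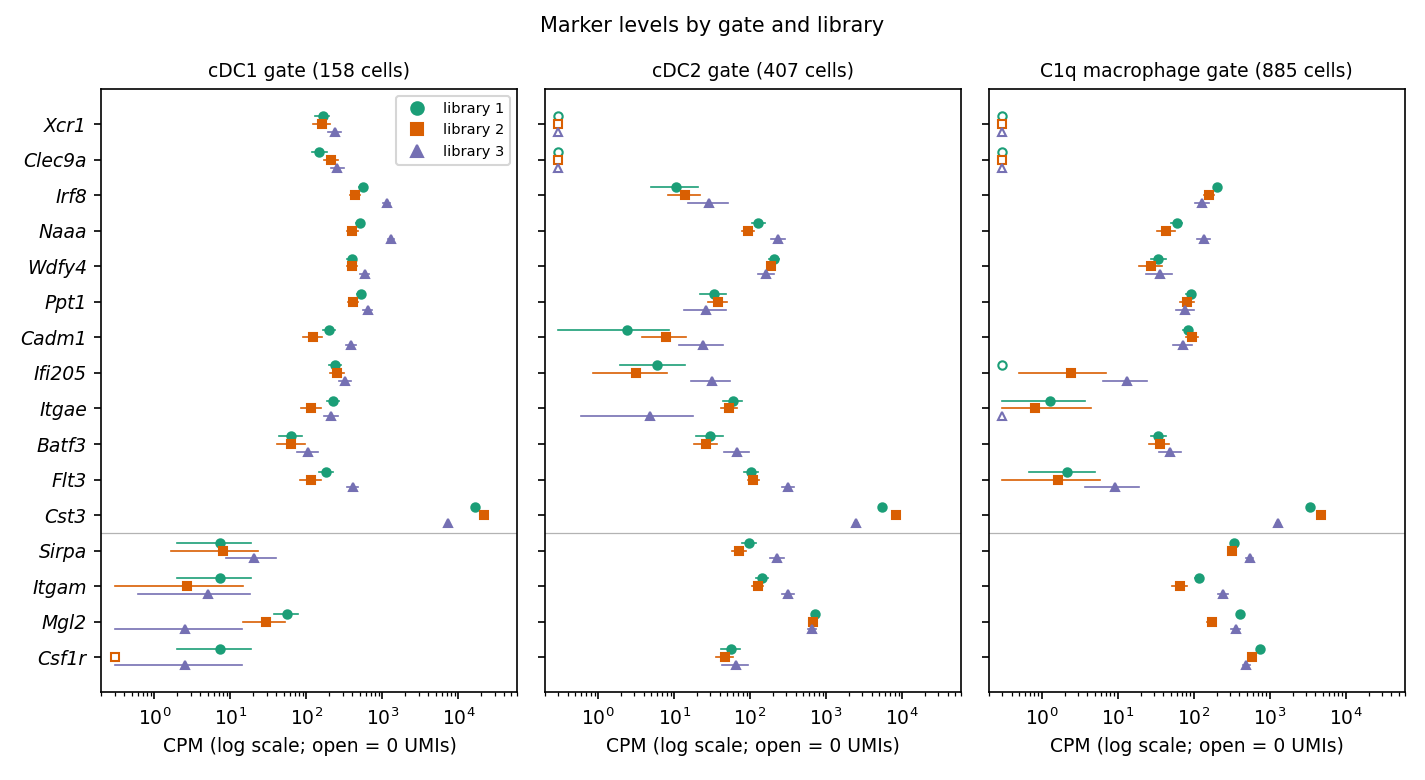
CPM on a log scale of 12 cDC1 or dendritic genes (above the line) and 4 genes of cDC2 or macrophages (below it) in the cDC1, cDC2 and C1q macrophage gates, by library, with exact 95% Poisson intervals and open symbols for 0 UMIs. Irf8, Naaa, Ppt1, Cadm1 and Ifi205 lie higher in every cDC1 library than in every cDC2 library, and Flt3 and Batf3 overlap between the 2 gates.

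All genes with 100 UMIs or more over both gates were ranked by the ratio in the library nearest to 1. The 15 highest were Irf8, Tlr3, Cadm1, Ppt1, Agpat3, Ifi205, Tbc1d8, Rab7b, Ncoa7, P2ry14, Tssc4, Fcrla, Slco3a1, Ifi211 and Mylk. Tlr3, the receptor for double-stranded RNA, was at 43.9, 31.8 and 190 CPM against 1.19, 0.780 and 9.70 CPM. Tbc1d8, of a family that acts on small GTPases, was at 148, 103 and 233 CPM against 16.7, 11.7 and 29.1 CPM. Agpat3, an acyltransferase of phospholipid synthesis, was at 89.6, 42.4 and 91.3 CPM against 4.77, 1.56 and 7.27 CPM. P2ry14, the receptor for UDP-glucose, was at 62.2, 66.2 and 124 CPM against 9.54, 1.56 and 0 CPM. Tssc4 differed by much the same factor in all libraries, 5.13-, 5.66- and 5.23-fold. Slco3a1, an organic anion transporter, was 7.96-, 6.35- and 4.53-fold higher.

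Mylk, the smooth muscle myosin light chain kinase, was the exception among the 15. It had 124 UMIs in 16 cells, 46 of them in 1 cell and 85.5% in 3 cells. Without the 12 marked barcodes its ratio was 0.64 in the library with the lowest value, and the call was lost. The other 14 highest and the 15 lowest kept their calls under all 9 alternatives with the same fold limit, UMI minimum and libraries.

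Ifi205 and Ifi211 belong to a family of interferon-induced DNA sensors on chromosome 1 whose members are closely alike, so reads may be shared between them and their counts are uncertain. Ifi205 was at 240, 254 and 322 CPM against 5.96, 3.12 and 31.5 CPM, and Ifi211 at 73.1, 34.4 and 134 CPM against 3.58, 7.80 and 9.70 CPM. Ncoa7, a nuclear receptor coactivator, was at 283, 260 and 337 CPM against 42.9, 27.3 and 41.2 CPM. Fcrla, an intracellular Fc receptor-like protein best known in B cells, was at 69.5, 82.1 and 65.9 CPM against 10.7, 1.56 and 12.1 CPM. The B cell gene Pax5 had no UMI in cDC1, and neither did Cd79a, which the rule excluded, but Ighm had 99 UMIs in 55 cells. The promoters of these genes are shown because each holds GAAANNGAAA, the core of an interferon response element, which IRF factors bind. Windows run from 250 bases before to 50 after a gene's start, in RefSeq (GRCm38.p6), 5′ to 3′ on the gene's strand. Capitals mark the motif, or its reverse complement, on either strand.
Fcrla, chr1:170927534-170927833, minus strand: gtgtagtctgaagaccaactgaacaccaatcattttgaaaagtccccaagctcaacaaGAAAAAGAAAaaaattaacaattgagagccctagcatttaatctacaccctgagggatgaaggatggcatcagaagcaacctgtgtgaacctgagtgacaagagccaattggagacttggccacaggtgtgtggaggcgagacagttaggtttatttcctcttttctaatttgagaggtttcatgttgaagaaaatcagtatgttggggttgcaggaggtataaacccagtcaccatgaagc
Ifi205, chr1:174031706-174032005, minus strand: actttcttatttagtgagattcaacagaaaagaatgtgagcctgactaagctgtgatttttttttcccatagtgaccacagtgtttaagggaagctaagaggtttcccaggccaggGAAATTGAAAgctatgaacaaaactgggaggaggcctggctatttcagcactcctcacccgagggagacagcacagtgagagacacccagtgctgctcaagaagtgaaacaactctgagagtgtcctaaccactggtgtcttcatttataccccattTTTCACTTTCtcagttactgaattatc
Ifi211, chr1:173912997-173913296, minus strand: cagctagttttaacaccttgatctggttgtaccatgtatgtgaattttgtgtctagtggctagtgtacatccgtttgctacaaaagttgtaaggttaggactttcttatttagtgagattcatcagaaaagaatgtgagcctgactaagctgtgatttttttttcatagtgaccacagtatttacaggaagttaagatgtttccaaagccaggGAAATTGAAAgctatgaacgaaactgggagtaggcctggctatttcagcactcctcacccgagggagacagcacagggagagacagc
Ncoa7, chr10:30655818-30656117, minus strand: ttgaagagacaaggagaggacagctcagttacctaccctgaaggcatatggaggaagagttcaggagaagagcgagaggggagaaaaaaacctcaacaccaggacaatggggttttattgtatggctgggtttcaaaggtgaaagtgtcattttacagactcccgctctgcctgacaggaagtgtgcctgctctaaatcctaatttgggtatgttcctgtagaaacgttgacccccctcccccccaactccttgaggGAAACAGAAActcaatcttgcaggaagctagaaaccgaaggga

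In Ifi205 and Ifi211 the capitals spell the same 10 bases, and Ifi205 holds a second match on the other strand. This second match and the Ncoa7 match begin after the start site of their windows, not before it. The Ncoa7 window lies inside the annotated gene (chr10:30628999-30803326), at an internal RefSeq start. The motif was in 5 of the 12 highest genes with a RefSeq window, these 4 and Mylk, in 1 of the 14 lowest with a window, Cybb, and in 2 of 21 cDC1 markers, Ifi205 and Tlr11. Mylk lost its call without the marked barcodes, and Ifi205 and Ifi211 are closely alike, so the 5 are not separate cases. It occurs in 3.44% of all 32851 windows and in 3.99% of 27025 genes. The search was chosen after the values were seen, and a match is a stretch of letters, not a bound site. The AP-1 motif TGANTCA, found in 7.81% of windows, was in P2ry14 and Mylk among the highest and in Ccl9, Clec4a2 and Cybb among the lowest. It can overlap the composite motifs GAAATGANTCA and TGANTCANNNNGAAA, which were in none of these windows and in 0.125% and 0.119% of all windows. GGAANNGAAA, in 2.72% of windows, was in Cybb and in none of the 12.

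The 15 lowest were Retnla, Gda, Itgam, Cybb, Ms4a4c, Mrc1, Mgl2, Gfra2, Wfdc17, Il7r, Abca9, Ccl9, Ear2, Clec4a2 and A530064D06Rik. Itgam, the CD11b chain by which cDC2 are often sorted, was at 7.31, 2.65 and 5.07 CPM in cDC1 and at 144, 126 and 318 CPM in cDC2. Cybb, the catalytic subunit of the phagocyte NADPH oxidase, was at 10.97, 13.2 and 7.61 CPM against 198, 253 and 337 CPM. Wfdc17, a small secreted protein of myeloid cells, was 10.1-, 9.34- and 9.89-fold lower. Il7r, the interleukin-7 receptor chain, was 9.20-, 9.0- and 9.70-fold lower. Mgl2, a galactose-binding lectin of cDC2, was at 54.9, 29.1 and 2.54 CPM against 707, 681 and 647 CPM, and 29 of its 42 UMIs in cDC1 came from 1 cell. Retnla had 6 UMIs in cDC1, all in library 3, where it was at 15.2 CPM against 1414 CPM. Mrc1, the mannose receptor, was at 0, 2.65 and 22.8 CPM against 100.2, 130 and 308 CPM. In C1q macrophages Retnla was at 1543, 1161 and 3175 CPM and Mrc1 at 965, 506 and 1730 CPM, above cDC2 in each library. Among the 15 genes, the levels in cDC1 were lower in each library than those of cDC2 in the same library, which is the rule that chose them.

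**Figure D4:**
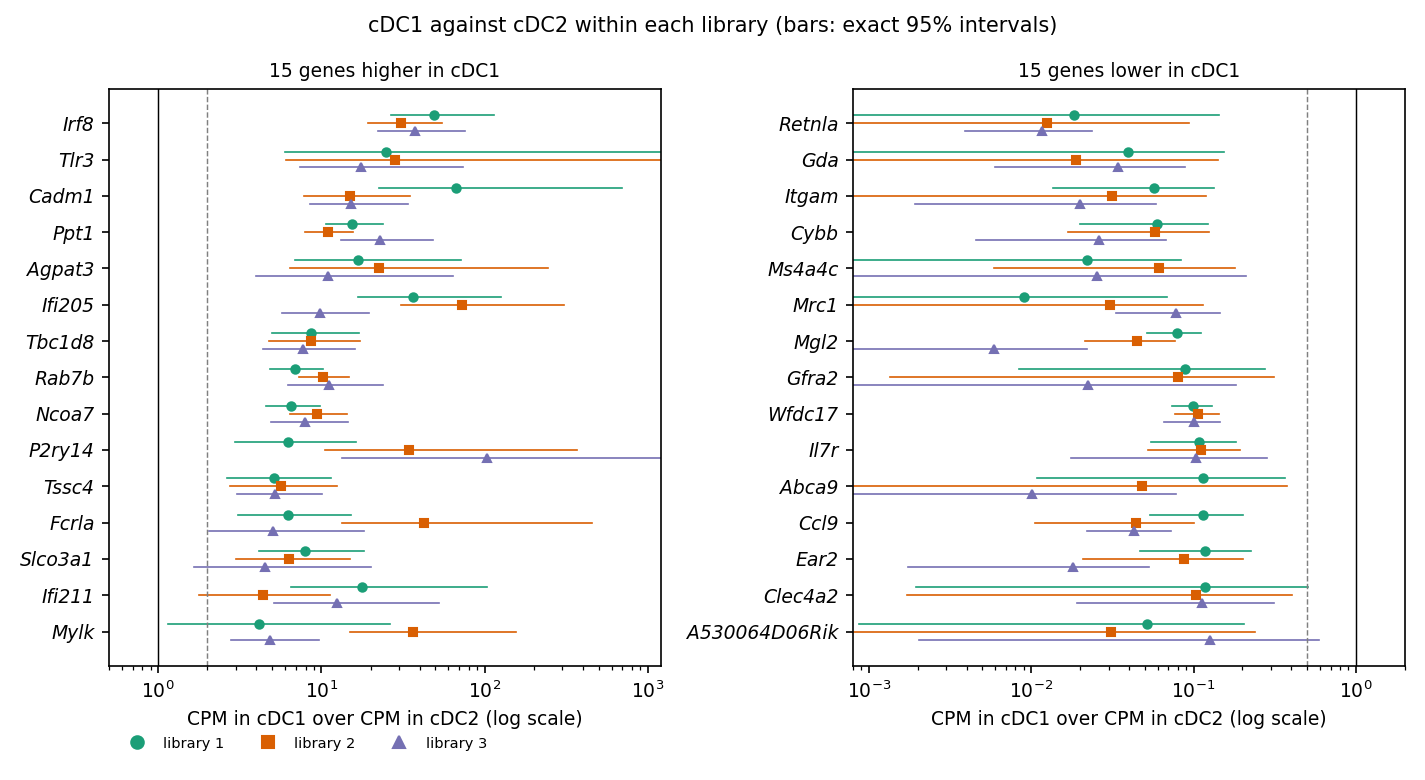
Ratio of CPM in cDC1 to CPM in cDC2 in each library, on a log scale with exact 95% intervals, for the 15 highest and the 15 lowest ranked genes, with dashed lines at the 2-fold limit. Irf8 exceeds 30-fold in every library, and the intervals of Slco3a1, Ifi211, Mylk, Clec4a2 and A530064D06Rik cross the limit in 1 library each.

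Of 15 tested cDC2 markers outside the rule, 11 were lower in cDC1 and none higher, against 3.64% and 2.35% of all genes. Their median log2 ratio was -2.48. Sirpa, a surface receptor of cDC2, was at 7.31, 7.95 and 20.3 CPM against 97.8, 71.7 and 228 CPM. Fcer1g, the shared signalling chain of Fc receptors, was at 199, 299 and 71.0 CPM against 1108, 1277 and 444 CPM. Klf4 was the cDC2 marker with the highest level in cDC1, at 512, 323 and 946 CPM against 556, 341 and 875 CPM, and was not called. Of 12 tested pan-dendritic genes, Cst3 was higher, Itgax and H2-DMb2 lower, and the other 9 were not called. Zbtb46, the transcription factor of conventional dendritic cells, was at 40.2, 18.5 and 60.8 CPM against 41.7, 52.2 and 46.1 CPM.

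Of 30 transcription factors tested, 2 were higher and 3 lower, where 2.35% and 3.64% of all genes were. Besides Irf8, Mycl, a MYC family member, was at 29.3, 23.8 and 124 CPM against 2.39, 3.90 and 2.42 CPM. Irf4, the factor of the cDC2 branch, was at 7.31, 5.30 and 5.07 CPM against 60.8, 71.7 and 116 CPM. Zeb2, which counters the cDC1 fate, was at 32.9, 18.5 and 48.2 CPM against 146, 162 and 410 CPM. Id2, which cDC1 development requires, was at 505, 744 and 819 CPM against 437, 558 and 453 CPM and was not called. Rel, an NF-kB subunit, was at 1055, 670 and 446 CPM in cDC1 and was not called either.

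Of 19 lectins and uptake receptors tested, 3 were higher and 5 lower, against 2.35% and 3.64% of all genes. Ly75, the uptake receptor DEC-205, was at 53.0, 31.8 and 17.7 CPM against 9.54, 10.9 and 2.42 CPM. Clec12a, which binds uric acid crystals of dead cells, was at 113, 167 and 195 CPM against 42.9, 68.6 and 82.4 CPM. Cd207, the lectin langerin, had 35 UMIs against 9, and its call was lost under 2 of 9 alternatives. The 5 lower were Clec4n, Clec4a2, Mrc1 and the Fc receptors Fcgr2b and Fcgr3, of which Fcgr3 had 3 UMIs in cDC1 and 124 in cDC2. Fcgr2b lost its call under 1 of 9 alternatives. Havcr2, the TIM-3 receptor, was at 329, 241 and 188 CPM against 218, 174 and 87.3 CPM, and was not called. Clec7a is not analysed here.

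Of 13 sensors tested, Tlr3, Tlr11 and Tlr12 were higher and Tlr2, a sensor of bacterial lipoproteins, lower. Of all genes 2.35% were higher and 3.64% lower. Tlr11, which senses a profilin of protozoa together with Tlr12, was at 14.6, 7.95 and 55.8 CPM against 2.39, 0.780 and 2.42 CPM, with 33 UMIs in all. Tlr12 had 20 UMIs in cDC1 and none in cDC2, at least 12.8-fold higher against the floor, and C1q macrophages had 91. Its call was lost under 4 of 9 alternatives, where its UMIs fell under the 20 required. Its lowest library ratio under any of the 9 was 14.9. Tlr1, Tlr5, Tlr6, Tlr8 and Ddx58 had no UMI in cDC1. Unc93b1, which carries nucleic acid sensors to endosomes, was not called, at 227, 217 and 360 CPM against 203, 174 and 296 CPM.

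Of 24 class I and cross-presentation genes tested, 2 were higher and 1 lower, where 2.35% and 3.64% of all genes were. Psmb9, a catalytic subunit of the immunoproteasome, was at 338, 371 and 350 CPM against 109, 88.1 and 77.6 CPM. Psme1, a proteasome activator subunit, was at 689, 599 and 540 CPM against 314, 290 and 204 CPM. Both had every cDC1 library above every cDC2 library. The lower member was Cybb. B2m, H2-D1 and H2-K1, the class I chains, were not called, with B2m at 1225, 932 and 1460.2 CPM against 1419, 1173 and 1445 CPM.

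Among class II processing genes outside the rule, 1 of 16 was higher and 3 lower, where 2.35% and 3.64% of all genes were. Cst3, cystatin C, an inhibitor of lysosomal cysteine proteases, was at 16773, 21964 and 7286 CPM against 5514, 8393 and 2498 CPM. Its ratio of 2.62 to 3.04 held within each library, while its level was lowest in library 3 in both gates. The proteases Ctss and Lgmn were lower, Ctss at 313, 448 and 302 CPM against 1046, 978 and 1118 CPM and Lgmn at 21.9, 31.8 and 65.9 CPM against 161, 161 and 167 CPM. H2-DMb2 was lower too, at 43.9, 45.0 and 76.1 CPM against 196, 172 and 177 CPM, with its call lost under 1 of 9 alternatives. Of 22 lysosome and lipid genes, Naaa and Ppt1 were higher and 5 lower (all genes 2.35% and 3.64%), among them Ctsa, Ctsh, Abca1 and Fth1. Ctsh, another cathepsin, was at 154, 170 and 106 CPM against 374, 451 and 293 CPM. Fth1, ferritin heavy chain, was 2.52-, 3.26- and 2.08-fold lower, with its call lost under 2 of 9 alternatives.

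Of 20 chemokine and chemokine receptor genes outside the rule 4 were lower, among them Ccr1, Ccl9 and Ccl5, and none higher, where 3.64% and 2.35% of all genes were. Xcr1, of the same list, was left out because the rule set it. Of 12 cytokine genes 5 were lower and none higher, against the same 3.64% and 2.35%. Il1b, interleukin-1 beta, was at 783, 1306 and 933 CPM against 2023, 2777 and 3860 CPM. Il1rn, its receptor antagonist, was at 27.4, 5.30 and 5.07 CPM against 68.0, 95.1 and 310 CPM, and Il6 had 13 UMIs against 164. Il1a was lower as well, and Ebi3 lost its call under 1 of 9 alternatives. Il12a, Il27, Lta and Ifnb1 had no UMI in cDC1. Il12b, a subunit of interleukin-12, had 54 UMIs in 6 cDC1, 34 of them in 1 cell and 46 in library 1. It was at 84.1, 18.5 and 2.54 CPM against 9.54, 5.46 and 4.85 CPM, lower than in cDC2 in library 3 alone. Of 21 growth factor and cytokine receptors 5 were lower and none higher, against the same 3.64% and 2.35%. Csf1r, the macrophage growth factor receptor, was lower, with 5 UMIs against 134. Il1r2, the decoy receptor of interleukin-1, was at 91.4, 117 and 112 CPM against 469, 310 and 272 CPM. Il4ra, Il1r1 and Il17ra, also lower, lost their calls under 2, 3 and 1 of 9 alternatives.

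Of 19 costimulation and checkpoint genes 1 was higher and 3 lower, where 2.35% and 3.64% of all genes were. Btla, an inhibitory receptor, was at 65.8, 63.6 and 165 CPM against 26.2, 24.9 and 70.3 CPM, with its call lost under 1 of 9 alternatives. Tnfsf9, Cd274 and Vsir were lower, and each lost its call under 1 or more alternatives, Vsir under 6 of 9. Cd83, a surface marker of activated dendritic cells, was not called, at 560, 644 and 1813 CPM against 646, 713 and 2088 CPM. Of 27 interferon response genes 2 were higher, Ifi205 and Mx1, and 5 were lower, Ifitm3, Gbp2, Gbp4, Gbp7 and Oasl2. These counts stand against 2.35% and 3.64% of all genes, and the median log2 ratio of the list was -0.71. Mx1, an antiviral GTPase, was at 27.4, 23.8 and 33.0 CPM against 5.96, 7.80 and 12.1 CPM. Of the 5 lower genes, only Gbp7 kept its call under all 9 alternatives, and Ifitm3 was at 327, 538 and 165 CPM against 1440, 1610 and 422 CPM. Ifit3 had no UMI in cDC1.

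Of 23 adhesion and migration genes, Cadm1, Itgae and Itgal were higher and Itgax, Itgam, Fscn1 and Marcksl1 lower, against 2.35% and 3.64% of all genes. Itgal lost its call under 4 of 9 alternatives. Itgax, the CD11c chain, was at 64.0, 31.8 and 88.7 CPM against 198, 150 and 189 CPM. Among 11 retinoid and mucosal imprinting genes only Itgae was called, where 2.35% of all genes were higher. Its partner chain Itgb7 was at 157, 207 and 195 CPM against 128, 127 and 126 CPM. Ahr, the aryl hydrocarbon receptor, was at 479, 400 and 269 CPM against 287, 303 and 92.1 CPM. Neither was called.

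None of 25 immediate early and heat shock genes was called in either direction, where 2.35% and 3.64% of all genes were, and the median log2 ratio of the list was -0.01. Their summed level was 17766, 14161 and 43948 CPM in cDC1 and 16435, 13696 and 45382 CPM in cDC2. Library 3 was thus highest in both gates by a similar amount, with Junb at 998, 1094 and 4061 CPM in cDC1. Among 18 survival genes only Cflar, an inhibitor of caspase-8, was lower, where 3.64% of all genes were. It was at 47.5, 29.1 and 60.8 CPM against 120, 162 and 223 CPM.

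**Figure D5:**
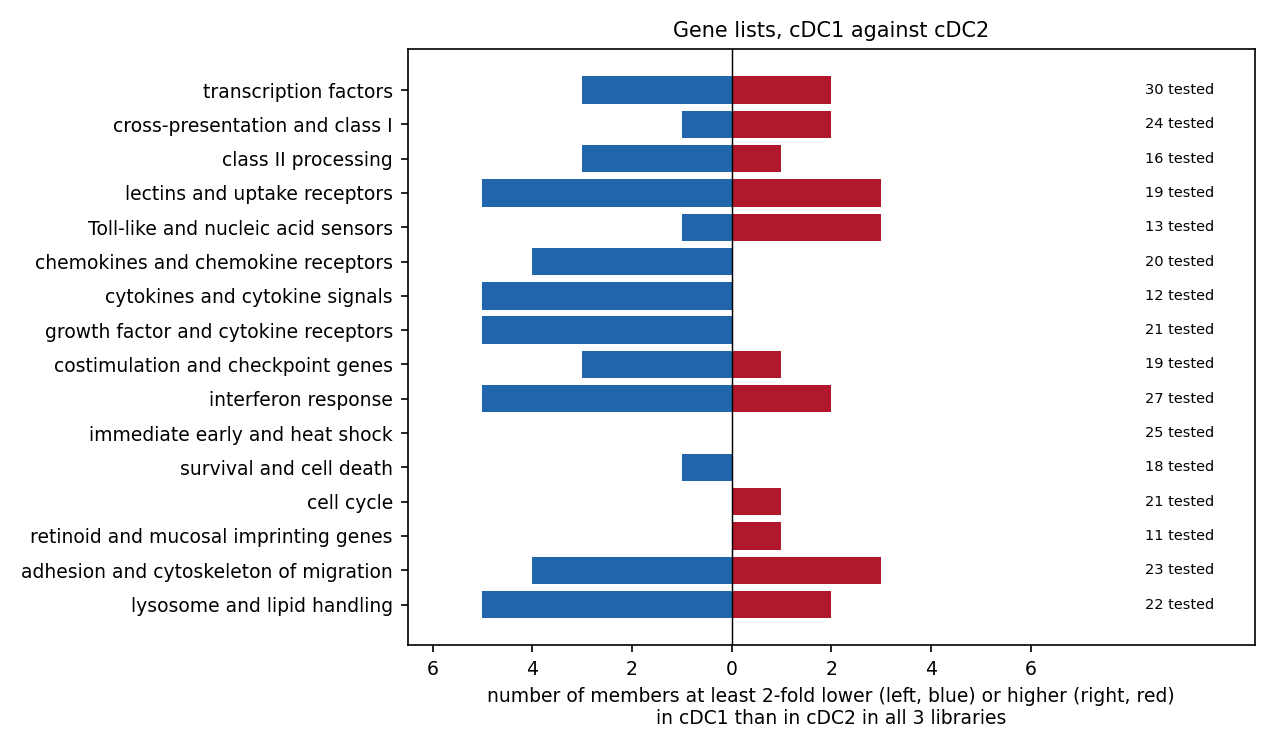
Number of tested members of 16 functional gene lists that were at least 2-fold lower (left) or higher (right) in cDC1 than in cDC2 in all 3 libraries, with the number tested at the right. Cytokines, chemokines and growth factor receptors have calls to the left alone, and immediate early genes have none.

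Against C1q macrophages the separation was wider. Of 10195 genes tested 381 were higher (3.74%) and 946 lower (9.28%), with a median log2 ratio of all tested genes of -0.17. Of these, 103 were higher and 172 lower against both gates, so the calls against both were 50.2% of the genes higher against cDC2 and 27.0% of those higher against macrophages. The pan-dendritic list turned over between the 2 references, with 10 of 12 members higher than in macrophages and 1 of 12 higher than in cDC2. Flt3 was at 2.12, 1.62 and 9.33 CPM in macrophages, and Zbtb46 at 2.12, 1.62 and 13.3 CPM. Of 13 tested macrophage genes outside the rule, all 13 were lower in cDC1, with a median log2 ratio of -6.22. Of 23 uptake receptors 15 were lower, and of 21 sensors 10 were lower, while Tlr3 and Tlr11 were higher. Irf8 was at 204, 160 and 129 CPM in macrophages, above cDC2 and below cDC1 in each library. Tap1, Psmb8, Psmb9, Psme1, Rab43 and Wdfy4 were the 6 of 24 class I and cross-presentation genes that were higher than in macrophages. Wdfy4 was at 34.4, 27.5 and 36.0 CPM there.

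Mature dendritic cells, which have taken up antigen and turned towards the lymph node, were few. A cell counted as mature with a UMI of 2 or more of Ccr7, Fscn1, Ccl22, Cacnb3 and Il4i1. This held for 12 of 158 cDC1 (7.59%, interval 3.99 to 12.9%) and 82 of 407 cDC2 (20.1%, 16.4 to 24.4%). By library the mature cDC1 were 9, 2 and 1 cells, a share of 26.5%, 3.70% and 1.43%, against 28.2%, 21.8% and 9.68% of cDC2. The gates were thus close in library 1, and without it the share of cDC1 was 2.42%. Cells of library 1 had the most UMIs, and thinned to 1500 UMIs per cell the shares were 1.97% of cDC1 and 5.96% of cDC2. Ccl22, a chemokine of mature cells, had 103 of its 120 UMIs in cDC1 in library 1. It was at 188, 42.4 and 2.54 CPM against 58.4, 95.1 and 162 CPM in cDC2, so higher in cDC1 in library 1 alone. Fscn1, an actin-bundling protein of mature dendritic cells, had 7 UMIs in 2 cDC1. Of 20 tested genes of the maturation list 5 were lower in cDC1 than in cDC2 and none higher, against 3.64% and 2.35% of all genes. The 5 were Fscn1, Il4i1, Cd274, Tmem123 and Ccl5. Ccl5 had 10 UMIs in cDC1, 9 of them in 1 cell, and lost its call under 4 of 9 alternatives, and Fscn1 under 1.

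Ccr7, the receptor that guides dendritic cells to lymph nodes, had a UMI in 37 cDC1 (23.4%) and 231 cDC2 (56.8%), and in 12.5% and 40.7% after thinning, against 1.38% of thinned C1q macrophages. Its level in cDC1 was 232, 254 and 48.2 CPM and in cDC2 663, 782 and 92.1 CPM. Library 3 was lowest in both gates. The ratio in library 3 was 0.53 (0.285 to 0.929), so Ccr7 was not called. The 37 cells with a Ccr7 UMI had Irf8 at 369 CPM against 846 CPM in the other 121, and Naaa at 326 against 897 CPM. They had Traf1 at 345 against 159 CPM and Cd86 at 323 against 179 CPM. Only 5 of the 37 were in library 3, the library where Irf8 and Naaa were highest, and the part of the library in these differences was not tested.

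Cycling cells, with a UMI of 2 or more of Mki67, Top2a, Cdk1, Ccnb1, Ccna2, Birc5, Ube2c and Pclaf, were 18 of 158 cDC1 (11.4%, 6.89 to 17.4%) and 31 of 407 cDC2 (7.62%, 5.23 to 10.6%). By library the share was 8.82%, 7.41% and 15.7% in cDC1 and 11.3%, 5.35% and 10.8% in cDC2, so in library 1 cDC2 had the higher share. After thinning the shares were 9.87% (5.63 to 15.8%) and 3.37% (1.81 to 5.69%). In library 1 the thinned shares were 9.09% of cDC1 and 4.35% of cDC2, 3 cells each, the reverse of the unthinned order. Top2a, a topoisomerase of dividing cells, was at 78.6, 34.4 and 238 CPM in cDC1 and at 66.8, 17.9 and 116 CPM in cDC2 and was not called. Of 21 cell cycle genes only Cdk1 was called higher than in cDC2, where 2.35% of all genes were. It had 32 UMIs against 12, and its call was lost under 3 of 9 alternatives. Against macrophages 7 of 22 cell cycle genes were higher, among them Mki67 and Top2a, where 3.74% of all genes were. Cycling cDC1 had Irf8 at 974 CPM against 641 CPM in the others, but 11 of the 18 were in library 3, where Irf8 was highest, and the part of the library was not tested. Among the 18, 2 were marked as doublets.

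Transcripts of ligands for the receptors of these cells lay mostly outside the cDC1 gate. Xcl1, the XCR1 ligand, had no UMI in cDC1 and was at 212 CPM in T cells and 944 CPM in 32 natural killer cells, a gate on Ncr1 without Cd3e that was chosen after the data were seen. T cells held 31.0% of its 1848 UMIs and the natural killer gate 5.19%, while 53.6% lay in barcodes outside all the gates, at 20.7 CPM. By library, natural killer cells had 852, 1714 and 267 CPM of Xcl1 and T cells 261, 317 and 6.84 CPM, lowest in library 3 in both. Flt3l, the FLT3 ligand, was at 15.3, 12.9 and 72.2 CPM in fibroblasts, which held 44.9% of its 1576 UMIs, and at 22.8, 16.7 and 28.7 CPM in T cells. T cells were thus higher in libraries 1 and 2 and fibroblasts in library 3. The cDC1 had 7 Flt3l UMIs in 6 cells, at 5.31 CPM, and 33.7% of the Flt3l UMIs lay outside all the gates. Csf2, the growth factor GM-CSF, had 1 UMI in cDC1. Epithelial barcodes, the largest named gate, held 53.1% of its 699 UMIs at 2.16 CPM, while T cells were at 7.41 CPM. Barcodes in none of these gates held 39.5% at 5.76 CPM.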

How the data were processed

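The deposited matrix holds raw UMI counts per gene and barcode, which the file headers and the submitters' processing notes credit to Cell Ranger 6.1.1. The notes name GRCm38 (mm10). The annotation version and any filter beyond cell calling are not given in the sources used here. The authors joined 3 libraries of 31053 genes and 27700 barcodes, and nothing maps library numbers to groups. Counts were read with Python 3.11.15, numpy 2.4.6, scipy 1.17.1 and pandas 2.3.3. Barcodes were filtered and gated as stated in the report, UMIs were summed per gate and library, and CPM ratios were formed with 0.5 UMI added. Ratio intervals are exact conditional binomial intervals, level intervals exact Poisson and share intervals Clopper-Pearson. Doublets were marked with Scrublet in scanpy 1.11.5, with 6% doublets assumed and scores over 0.25 marked. The scripts were tested on simulated data.

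The members, gates and 28 gene lists were chosen with earlier results of these data known. Of 469 list genes 466 were in the matrix. Named genes are all cDC1 and pan-dendritic markers, the 3 members of each list with the highest CPM, members called against cDC2, and the 15 genes ranked highest and lowest, ribosomal and mitochondrial genes left out. Genes of other marker lists are named where they had 0 UMIs. Genes outside this rule (Tap1, Psmb8, Tmem123, Flt3l, Xcl1 and Csf2 among them) and the promoter search were chosen after values were seen. Ifi30 and Cxx1b are not analysed here, and some list members are not reported here.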

Additional observations from a re-analysis of the deposited data

How the results depend on the processing

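With at least 2 UMIs of Xcr1 and Clec9a required, cDC1 were 0.419% of kept barcodes and 21.1% of conventional dendritic cells, and with a UMI of both 0.281% and 15.2%. A 20000 CPM class II minimum gave 0.515%. Leaving out each library in turn gave 0.551 to 0.719% of kept barcodes, 21.9 to 38.8% of conventional dendritic cells, 270 to 323 higher and 376 to 476 lower genes against cDC2, 448 to 487 and 1046 to 1373 against macrophages, 2.42 to 12.5% mature and 7.95 to 13.5% cycling cells. At 1.5-fold, 505 genes were higher and 581 lower than in cDC2, and 776 and 1577 than in macrophages. With 50 UMIs required, 117 were higher than in cDC2. Of 91 called named genes 66 kept their call under all 9 alternatives with the same fold limit, UMI minimum and libraries. The 50 UMI minimum was not among the 9. Over 50 named levels, 506 of the values under alternatives moved by less than their counting interval and 94 by more, 25 of these without library 3. No paired analysis was possible because each group was 1 library and libraries are not assigned to groups. Depth limits detection in libraries 2 and 3, where a cDC1 has a median of 6963.5 and 4883.5 UMIs, and the 34 to 70 cells per library limit every share.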
